A study of Mus musculus with 5 samples.

Results

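The let-7 family was followed through activation of mouse helper T cells with 8 microarray probes, out of 171 microRNA probes and 178 probes in all. The members were every probe whose ID, after its prefix, reads 7a, 7b, 7c, 7d, 7e, 7f, 7g or 7i, and each of these IDs occurred once. Total RNA of CD4+CD25- T cells activated overnight (1 array), for 3 days (2 arrays) or for 10 days (2 arrays) was hybridised with RNA of CD4+CD25- T cells that had not been activated, called naive after the title of the series. The overnight array held activated RNA in Cy5, and each later time had 1 array with activated RNA in Cy5 and 1 with it in Cy3. The labels name no strain, age, stimulus or culture, and do not say whether both arrays of a dye pair held the same RNA extracts. CD4 and CD25 are not measured by microRNA probes, and a ratio of RNAs gives no level, so the labelled cell type could not be checked against markers.

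The let-7 microRNAs are among the oldest known animal microRNAs. They are cut by Dicer from hairpin precursors, whose processing is blocked by the RNA-binding protein Lin28, and they repress messenger RNAs that carry matches to their seed, among them those of growth regulators such as Ras, Myc and Hmga2. In many tissues they are known for restraining growth and for marking differentiated cells, and in T cells they have been studied as a brake on proliferation and effector function.

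All 8 members matched a mature mouse sequence in RefSeq (build GRCm38.p6) by name, 5 with a gene from the platform annotation and 3 (1org-7a, 1org-7c and 1org-7f) by probe ID alone. The sequences are shown because the members differ by so few bases. They are written 5′ to 3′ with the seed, bases 2 to 8, in capitals.
let-7a: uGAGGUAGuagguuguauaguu
let-7b: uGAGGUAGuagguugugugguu
let-7c: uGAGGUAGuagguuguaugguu
let-7d: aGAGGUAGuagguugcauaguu
let-7e: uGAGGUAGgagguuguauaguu
let-7f: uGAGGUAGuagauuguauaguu
let-7g: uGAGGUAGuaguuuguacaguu
let-7i: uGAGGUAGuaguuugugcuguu
miR-98: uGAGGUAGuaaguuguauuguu
The seed was the same in all 8 members and in miR-98, which is counted with the family by its seed but was not a member here. Counted from 1 at the 5′ end and with let-7a as the reference, let-7c differed by A19G, let-7e by U9G and let-7f by G12A. Let-7b differed by A17G and A19G, and let-7d by U1A and U16C. Let-7g and let-7i shared G12U and U18C, and let-7i had A17G and A19U as well. Whether the probes distinguish sequences that differ by 1 base was not tested, and a probe may report its near relatives too.

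The 8 sequences lie in the hairpins of 11 mouse genes, so that the probes for let-7a, let-7c and let-7f each stand for 2 genes. Mirlet7a-1, Mirlet7f-1 and Mirlet7d lie within 2.26 kb at chr13:48536012-48538272 on the minus strand, outside any other annotated gene. Mirlet7c-2 and Mirlet7b lie within 0.80 kb at chr15:85706603-85707403 on the plus strand, inside the long noncoding RNA gene Lncppara. Mirlet7e (chr17:17830352-17830444, plus strand) lies within the bounds of Spaca6, Mirlet7g (chr9:106178840-106178927, plus strand) within those of Wdr82, and Mirlet7i (chr10:122985640-122985724, minus strand) in no other annotated gene. The second copies are Mirlet7a-2 on chromosome 9, within Mir100hg, Mirlet7c-1 on chromosome 16, and Mirlet7f-2 on chromosome X, within Huwe1 and beside Mir98.

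The deposited values are 1 log ratio per probe and array, read here as log2 of Cy5 over Cy3. Neither the base nor the numerator is stated, so folds rest on the first reading and all directions would turn if Cy3 were the numerator. The 2 arrays with activated RNA in Cy3 were multiplied by -1, so that every value is activated over naive. The turned array medians over all microRNA probes lay between -1.75 (overnight) and 1.42 (day 3, activated RNA in Cy3), so results are given as deposited and with each array centred on its median. Centring takes 0.81 off a day 3 mean and -0.45 off a day 10 mean, and takes -1.26 off every difference of day 10 and day 3. Pearson's r between the turned arrays of a pair was 0.84 (day 3) and 0.96 (day 10) across the 8 members, against 0.66 (day 3) and 0.43 (day 10) across all microRNA probes. These describe probes of 1 family on shared arrays and carry no test.

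**Figure D1:**
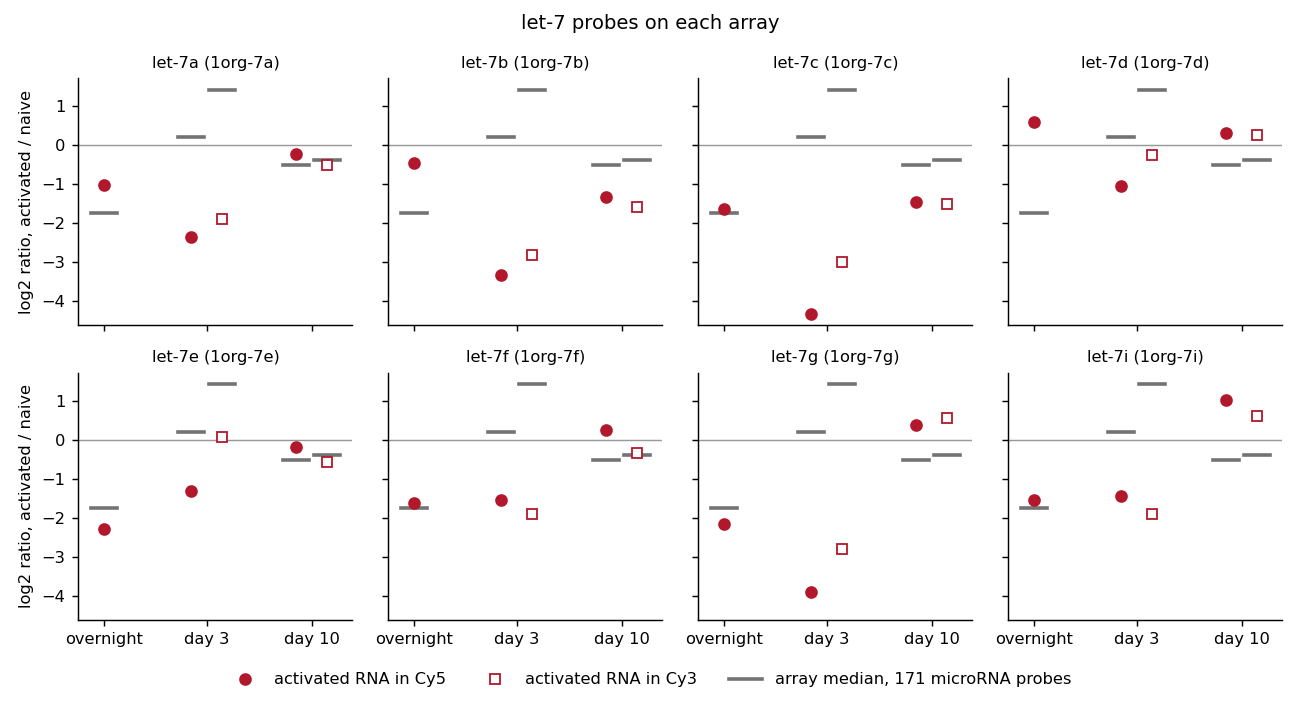
Log2 ratio of activated over naive RNA (y axis) for each let-7 probe on each of the 5 arrays (x axis, by time of activation); filled circles are arrays with activated RNA in Cy5, open squares arrays with it in Cy3, and grey bars the array medians of 171 microRNA probes. At day 3 every point lies below the grey bar of its array, and at day 10 let-7b and let-7c are the members with both points below.

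At day 3 most let-7 probes were lower in activated than in naive cells. By the size rule, a mean log2 ratio at least 1 from 0 with the same sign on both arrays, 6 of 8 members were lower and none higher, against 12.9% of all microRNA probes lower. After centring all 8 were lower, against 19.9% of all probes. The median of the members was -1.93, against 0.83 over all microRNA probes (-2.74 against 0.02 after centring). In total RNA of a cell population, fewer cells that hold a microRNA and less of it per cell cannot be told apart.

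Let-7c (1org-7c) had the lowest ratios of the family at day 3, -4.33 on the array with activated RNA in Cy5 and -2.99 on that with it in Cy3. Their mean was -3.66 ± 0.67, 12.7-fold lower in activated cells, where ± is the distance of either array from the mean (n = 2 arrays) and holds the dye effect that the mean cancels. Let-7g (1org-7g) stood at -3.90 and -2.79, with a mean of -3.35 ± 0.55 or 10.2-fold lower. These members were far below 0 on both arrays, and the 2 arrays of one overlapped those of the other. Let-7b (1org-7b), which shares the chromosome 15 locus with a let-7c gene, had -3.33 and -2.81 and a mean of -3.07 ± 0.26, 8.40-fold lower. Let-7a (1org-7a) had -2.37 and -1.90, with a mean of -2.13 ± 0.24. Both of its arrays lay above both arrays of let-7b, a gap between neighbouring means of 0.94.

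Let-7f (1org-7f) had -1.55 and -1.90 (mean -1.72 ± 0.18) and let-7i (1org-7i) -1.46 and -1.90 (mean -1.68 ± 0.22), with overlapping arrays. Let-7d (1org-7d) had -1.05 and -0.26, with a mean of -0.65 ± 0.39. Let-7e (1org-7e) had -1.31 and 0.06, with a mean of -0.62 ± 0.69. Let-7d and let-7e were thus the members under 2-fold as deposited, and let-7e was the one without the same sign on both arrays. After centring, let-7d had -1.25 and -1.68 and let-7e -1.51 and -1.36, so that both were lower on each array. Between 1.76% (let-7c) and 15.9% (let-7e) of the other microRNA probes had a lower day 3 mean, an order that centring does not change.

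The 2 arrays of a pair may hold 1 pair of extracts, so the design gives no test within a time. A limma fit over the 5 arrays with a term for each time and a dye term, with Benjamini-Hochberg adjustment over all microRNA probes, measures no more than how arrays vary, which can be technical variation alone. It gave every probe the same standard error, 0.45 for a day 3 or day 10 mean, so its p-values follow the size of the change. In that fit the same 6 members were lower at day 3, with adjusted p between 9.6e-13 (let-7c) and 0.00083 (let-7i), against 12.9% of all probes. Let-7d and let-7e did not pass as deposited (adjusted p = 0.19 and adjusted p = 0.20 in limma).

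At day 10 let-7b and let-7c were lower in activated cells, and the other 6 members were under 2-fold. Against the 2 of 8 members lower, the size rule called 17% of all microRNA probes lower, so the count does not set the family apart. After centring the same 2 members were lower, against 4.09% of all probes, and let-7i was higher, against 14.6%. The centred means of let-7b (-1.0025) and let-7c (-1.0335) were barely past the limit of the size rule. The median of the members was -0.21, against -0.56 over all microRNA probes (0.24 against -0.12 after centring).

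Let-7c had -1.45 and -1.51 at day 10, with a mean of -1.48 ± 0.03, 2.79-fold lower in activated cells. Let-7b had -1.32 and -1.58, with a mean of -1.45 ± 0.13, 2.73-fold lower. These 2 members, whose sequences differ by 1 base, overlapped each other, and whether their probes report separate signals was not tested. Both members lay below both arrays of every other member, the next mean being 1.08 higher. In the limma fit over 5 arrays they were the 2 members lower (adjusted p = 0.013 and adjusted p = 0.014), against 11.7% of all probes. With that fit on centred arrays let-7c was lower, against 2.92% of all probes, let-7i was higher, against 14%, and let-7b was not called.

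Let-7e (-0.18 and -0.57, mean -0.37 ± 0.19), let-7a (-0.23 and -0.51, mean -0.37 ± 0.14) and let-7f (0.24 and -0.35, mean -0.05 ± 0.29) were near 0 at day 10, each overlapping the next. Let-7d had 0.31 and 0.26, let-7g 0.37 and 0.55, and let-7i 1.03 and 0.60. These last 3 were above 0 on both arrays at day 10. Of all microRNA probes 66.1% were below 0 on the array with activated RNA in Cy5 and 67.3% on that with it in Cy3. The arrays of these 3 members overlapped neither each other nor those of let-7f, though a pair may hold the same extracts. The mean of let-7i, 0.81 ± 0.21, was the highest of the family, and after centring it stood at 1.26.

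**Figure D2:**
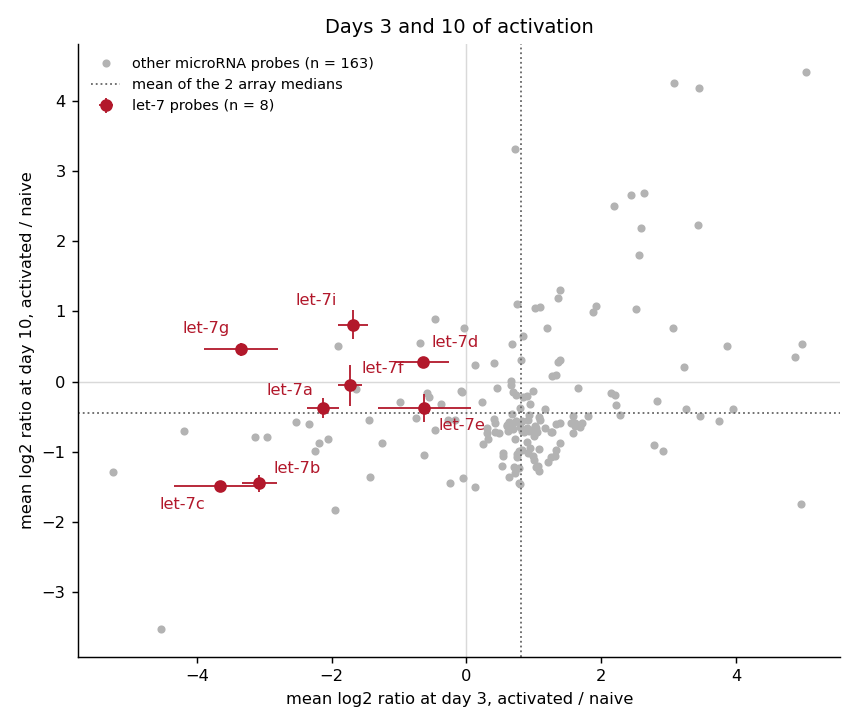
Mean log2 ratio of activated over naive RNA at day 3 (x axis) and day 10 (y axis) for 8 let-7 probes (red, bars spanning the 2 arrays of a pair) and 163 other microRNA probes (grey); dotted lines are the means of the 2 array medians. All 8 let-7 probes lie left of the vertical dotted line at 0.81, and let-7b and let-7c are the members at -1.45 and -1.48 on the y axis.

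Between the later times the let-7 probes, as deposited, moved the opposite way from most others. The difference of means, day 10 minus day 3, was above 0 in all 8 members, while the median difference over all microRNA probes was -1.22. Of all microRNA probes 76.0% had a difference below 0 as deposited and 48.5% after centring, so most others moved the opposite way only as deposited. The median of the members was 1.72 (2.97 after centring, where that of all probes was 0.04). By the size rule, a difference of at least 1 with no overlap between the pairs, 6 of 8 members were higher at day 10, against 12.9% of all microRNA probes. After centring all 8 were higher, against 28.1% of all probes. Since a low day 3 value enters every such difference, and naive cells are the control at both times, the difference is not independent of the day 3 result.

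Let-7g differed most, with 0.37 and 0.55 at day 10 against -3.90 and -2.79 at day 3, a difference of 3.81 or 14.0-fold. Let-7i had 1.03 and 0.60 at day 10 against -1.46 and -1.90 at day 3, a difference of 2.49 or 5.63-fold. Both members were below 0 on both day 3 arrays and above 0 on both day 10 arrays. In the limma fit over 5 arrays the adjusted p was 2.1e-07 for let-7g and 0.0011 for let-7i, with a standard error of 0.63 for every probe.

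Let-7c (2.18), let-7a (1.76), let-7f (1.67) and let-7b (1.62) followed, with adjusted p between 0.0030 and 0.025 in limma. Each had both day 10 arrays above both day 3 arrays, as 7 of the 8 members did, against 16.4% of all microRNA probes. Let-7d differed by 0.93, also with opposite signs at the 2 days, and did not pass (adjusted p = 0.19 in limma). Let-7e differed by 0.25 with overlapping pairs (adjusted p = 0.77 in limma). After centring the differences ran from 1.51 (let-7e) to 5.06 (let-7g). The limma fit called 6 of 8 members higher at day 10 than at day 3, against 8.77% of all probes. Among the other microRNA probes, 81.2% had a lower difference than let-7e and 99.4% a lower one than let-7g.

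**Figure D3:**
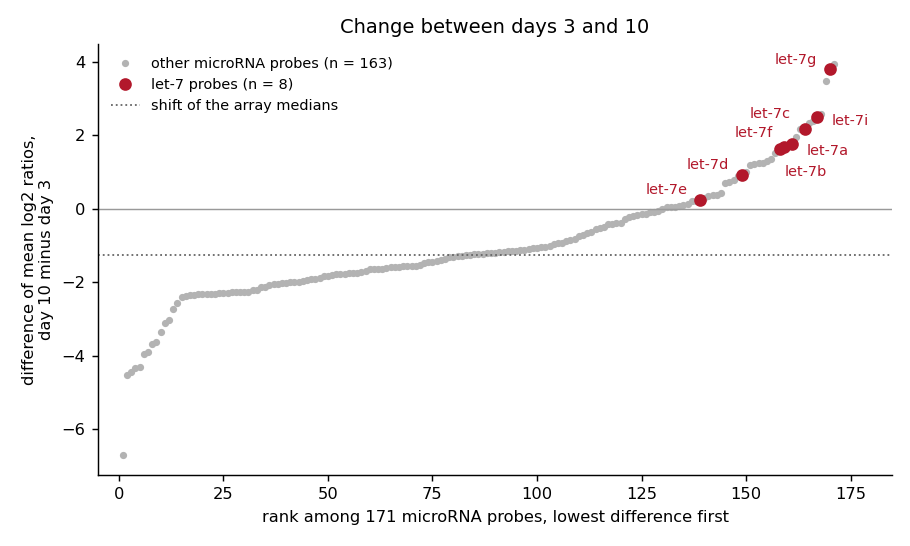
Difference of the mean log2 ratios, day 10 minus day 3 (y axis), for 171 microRNA probes in order of that difference (x axis), with the 8 let-7 probes in red and the shift of the array medians, -1.26, dotted. The let-7 probes run from 0.25 (let-7e) to 3.81 (let-7g), all above 0 and above the dotted line.

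Overnight, on a single array with its dye effect in the values, the family followed the array. Of 8 members 6 were at least 2-fold lower as deposited, against 73.1% of all microRNA probes, a share near the background. After centring none was lower, against 4.09% of all probes, and let-7b and let-7d were higher, against 21.6%. The median of the members was -1.59, against -1.75 over all microRNA probes.

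As deposited the overnight log2 ratios were -2.30 for let-7e, -2.17 for let-7g, -1.63 for both let-7c and let-7f, -1.55 for let-7i, -1.02 for let-7a, -0.46 for let-7b and 0.60 for let-7d. Let-7e, which had the highest day 3 mean of the family, was thus the lowest overnight. After centring let-7d stood at 2.34, let-7b at 1.29 and let-7e at -0.56. The dye effect was taken as the mean over both later pairs, which differed (member median -0.33 at day 3 and 0.13 at day 10). For let-7a it was -0.24 at day 3 and 0.14 at day 10. When that mean was taken off, let-7a was the member no longer lower (-0.97). That left 5 of 8 members lower, against 71.9% of all microRNA probes. The median of the members was then -1.54, against -1.42 over all probes, and so below it rather than above it as before.

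The array of day 3 with activated RNA in Cy5 has the same dye orientation as the overnight array, so a dye effect that stays the same cancels in their difference. Day 3 minus overnight had a median of -1.50 over the members and 1.99 over all microRNA probes, a gap of 3.48 that centring does not alter. Let-7b had -3.33 at day 3 and -0.46 overnight (difference -2.88), and let-7c -4.33 at day 3 and -1.63 overnight (-2.70). Let-7e was the highest, with -1.31 at day 3 and -2.30 overnight (0.99). All 8 members lay below the median difference of all probes, but each time is 1 array here, and the difference was not tested.

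With 1 value per time, limma's test of the mean of the 3 times against 0 called none of the 8 members, and 0% of all 171 probes. At an unadjusted p below 0.05 it held let-7c alone of the members and 8 probes in all on the lower side and 3 on the higher. Let-7c had the lowest mean of the family (-2.26 ± 0.93, pooled SE, n = 3 times, adjusted p = 0.52 in limma). Let-7a, let-7b, let-7c, let-7e and let-7f had values below 0 at all 3 times. Let-7a, let-7b and let-7c were below 0 on each of the 5 arrays. As deposited, 86.5% of all microRNA probes were below 0 overnight, 23.4% in the day 3 mean and 76.0% in the day 10 mean. The shares below 0 at all 3 times or on all 5 arrays were not counted, so these member counts have no background beside them. In a limma fit that took each of the 5 arrays as a replicate, with a term for dye, let-7c was the 1 member called, on the lower side (adjusted p = 0.018 in limma), against 2.34% of all probes.

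Probes for 6 neighbours of let-7 genes in the genome had medians near those of all microRNA probes, at day 3 and for day 10 minus day 3. Besides miR-98 the neighbours are miR-99b and miR-125a on both sides of Mirlet7e, within 0.69 kb. The others lie in wider loci, miR-99a and miR-125b with Mirlet7c-1 within 47.4 kb, and miR-100 and miR-125b with Mirlet7a-2 within 50.58 kb. They were read by probe number, and mature miR-125b comes from both of its genes. At day 3 their median was 0.90, against 0.83 over all probes. None was lower and 2 (1org-99a and 1org-125b) were higher, by the size rule (against 38% of all probes higher) and in limma (against 39.2%). The median of day 10 minus day 3 was -1.34, against -1.22 over all probes. None was higher at day 10, and 2 were lower by the size rule (against 41.5% of all probes) and 3 in limma (against 43.9%). With 6 probes, these counts do not set the neighbours apart from other microRNA probes. Once arrays were centred, the size rule called none of the 6 in either comparison.

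Probe 1org-98, for the seed relative miR-98, had -0.30 and -0.09 at day 10 against 0.22 and 1.24 at day 3. Its difference of -0.93, toward lower values at day 10, was opposite in sign to that of all 8 members, and did not pass in limma (adjusted p = 0.19). After centring that difference was 0.33, still below the lowest member. Probe 1org-125a, beside let-7e, had 0.16 and 0.47 at day 10 against 0.78 and 0.85 at day 3. Probe 1org-99b, on the other side of let-7e, had 1.31 and -1.58 at day 10 against 3.28 and -1.31 at day 3. Its 2 arrays had opposite signs at both days, so no direction is given. Probe 1org-99a had -0.21 and -0.58 at day 10 against 1.23 and 1.10 at day 3, and 1org-125b -1.20 and -1.24 at day 10 against 0.32 and 1.75 at day 3. Probe 2org-100 had -2.12 and -0.87 at day 10 against -1.55 and 1.80 at day 3. A difference between the members and these neighbours was not tested.

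**Figure D4:**
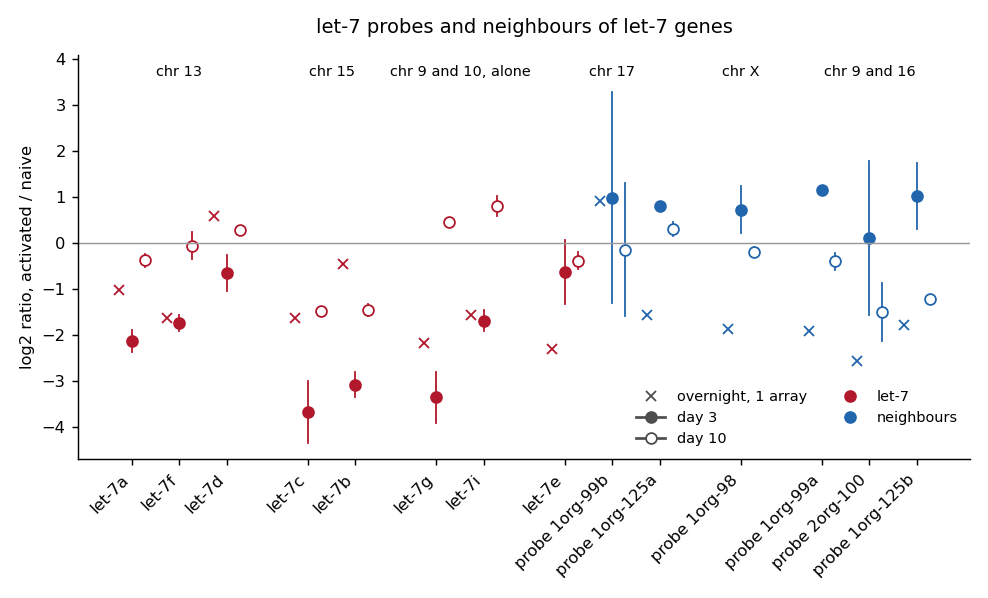
Log2 ratio of activated over naive RNA (y axis) for the 8 let-7 probes (red) and 6 probes numbered as neighbours of let-7 genes (blue), grouped along the x axis by the chromosome of one of their genes (let-7a, let-7c and let-7f have a second one elsewhere); crosses are the overnight array, filled circles day 3 means, open circles day 10 means, and lines join the 2 arrays of a pair. Day 3 means are below 0 in all let-7 probes and above 0 in all neighbours, while the day 3 lines of let-7e (-1.31 and 0.06), 1org-99b and 2org-100 cross 0. Of all microRNA probes 23.4% have a day 3 mean below 0, so the side of the neighbours is that of most probes. After centring the day 3 means of the neighbours run from -0.69 to 0.35.

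Outside the family, the 5 probes whose 3 time values lay nearest to the median of the members were 1org-15b (Euclidean distance 0.58 on the log2 scale over 3 times), 1org-16 (0.59), 1org-30c (0.70), 1org-15a (0.91) and 1org-30d (1.05). The members themselves lay between 0.26 (let-7f) and 2.58 (let-7d) from that median, so these probes were nearer to it than several members. At day 3 all 5 were at least 2-fold lower, from -2.53 to -1.45, and at day 10 none was called, with means from -0.99 to 0.51. Between days 10 and 3, 4 of the 5 were higher. The same 5 probes were nearest over the 5 arrays, and 3 of them over days 3 and 10 alone. They were chosen for this likeness, so their values are a description.

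Probes of microRNAs known from other cells give the background of the day 3 values. The neural (3 probes), liver (1), muscle (4) and erythroid (1) probes had day 3 medians from 0.83 to 1.06, near the 0.83 of all microRNA probes, and the myeloid probe 2org-223 stood at -0.24. The 8 probes of microRNAs known from lymphocytes and blood cells had a median of -1.995. They stand for miR-142, miR-150, miR-155 and miR-181 alone, with several probes each for miR-142 and miR-181. Of the 8, 6 were at or below -1, against 12.9% of all microRNA probes lower by the size rule. The 1 above 1 was 1org-155 at 4.88, against 38% of all probes higher, so the list had no single direction. At day 10 the neural, liver, muscle and erythroid medians were from -1.20 to -0.57 and that of the lymphocyte and blood probes was -1.08. The erythroid miR-451 was not analysed here. Whether a change in the makeup of the cells has a part in the let-7 values was not tested.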

How the data were processed

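The authors deposited 1 table of log ratios, read as log2, with the log base, numerator, scanner, background correction and normalization not given in the sources used here. Depth has no counterpart on arrays, and the number of arrays limits the precision. Groups and dyes came from the labels. Arrays with activated RNA in channel 1 were multiplied by -1, and 7 probes for transfer and small nuclear RNAs were left out. Fits ran across all 171 microRNA probes with R 4.3.3 and limma 3.58.1 (eBayes after lmFit, two-sided tests, a threshold of 0.05 after Benjamini-Hochberg adjustment) and were tested on simulated data. Other values were computed with Python 3.11.15 and pandas 2.3.3. As both arrays of a dye pair may hold the same extracts, a pair counted as 1 replicate, and within a time a size rule (2-fold) took the place of a test. P-values leave out the spread of the naive control. Named probes were all members, miR-98, neighbours of let-7 genes, the 5 nearest probes and a marker list. Alternatives were centring, scaling, a 1.5-fold rule, removal of the dye effect, leaving out arrays, and other fits. The members and lists were chosen with earlier results of these data known.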

Additional observations from a re-analysis of the deposited data

Results flagged for a closer look

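The effect of activation differed between days 10 and 3 for 7 of the 8 let-7 probes, either by the limma fit over 5 arrays (Benjamini-Hochberg adjusted over all microRNA probes) or because all arrays of one day lay on the other side of 0 from those of the other day. The same held for 56.7% of all 171 microRNA probes: 11.1% were higher at day 10, as these 7 were, and 45.6% were lower. The differences of mean log2 ratios, day 10 minus day 3, were 3.81 for 1org-7g, 2.49 for 1org-7i, 2.18 for 1org-7c, 1.76 for 1org-7a, 1.67 for 1org-7f and 1.62 for 1org-7b, which passed the fit. For 1org-7d the difference was 0.93, with both arrays below 0 at day 3 and above 0 at day 10, and it did not pass (adjusted p = 0.19 in limma). The array medians moved by -1.26 between the same days, opposite to these differences.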

How the results depend on the processing

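The day 3 count of 6 lower members and the count of 6 members higher at day 10 than at day 3 stayed between 6 and 8 under every alternative run, and no member was called the other way. For day 10 none of the members was higher as reported, but 1 was with centred arrays and 1 with a 1.5-fold rule (let-7i in each case, against 14.6% and 14.0% of all probes), and 2 were with centred and scaled arrays (let-7g and let-7i, against 17%). Leaving out the array with activated RNA in Cy5 gave 0 higher (against 8.19% of all probes), and leaving out that with it in Cy3 gave 1 (against 15.8%). In limma over 5 centred arrays, chosen after seeing the data, 1 member was lower and 1 higher (against 2.92% and 14.0%). Overnight, 0 were lower and 2 higher after centring (against 21.6% of all probes higher, or 15.8% with the dye effect taken off), and 1 was higher with a 1.5-fold rule (against 8.19%). Centring turned the overnight values of let-7a (0.73), let-7b (1.29), let-7c (0.11), let-7f (0.12) and let-7i (0.20), and with the dye effect taken off too those of let-7a (0.45), let-7b (1.02) and let-7c (0.10). As deposited let-7b was under 2-fold (-0.46). Over all times 1 member was lower in the 5-array fit (against 2.34%). The turned values follow from taking off the array median, and the cause of the other shifts was not tested. No paired analysis was possible because the labels give the groups no shared replicate numbers. Signal over background is unknown here, so values of dim probes could not be told from noise.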

Other observations

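The opposite arm of the let-7d hairpin has its own probe, 1org-7d*, named by probe ID alone. Its RefSeq sequence is given because it shares no seed with the family.
let-7d-3p: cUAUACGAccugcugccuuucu
It had -1.04 and -0.71 at day 10, against -1.68 and -0.82 at day 3. Its mean at day 3, -1.25 ± 0.43, was lower than the -0.65 ± 0.39 of let-7d, with overlapping arrays. At day 10 it was -0.87 ± 0.17, where let-7d was above 0 on both arrays (0.28 ± 0.02), so the arms lay apart beyond the distance of their arrays. Overnight the arms stood at 0.04 (1org-7d*) and 0.60 (1org-7d). The difference between the arms was not tested.

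Likeness of sequence and likeness of the 3 time values were set side by side for pairs of members. The 4 pairs of members that differ by 1 base had a median distance of 1.65 on the log2 scale, the 8 pairs that differ by 2 bases 1.84, and the 8 pairs that differ by 3 bases 2.86. The 6 pairs that differ by 4 bases ran from 0.87 to 3.86. Over all 28 pairs, which share members and arrays, the correlation was r = 0.31, too weak to set an order. Let-7g and let-7i, the members with the largest differences between the later days, share the changes G12U and U18C and come from single genes on chromosomes 9 and 10. Their distance over the 3 times was 1.81, near the median of the pairs that differ by 2 bases, as they do. Let-7b, let-7d and let-7e come from single genes too. Whether sequence or gene has a part in the differences was not tested. Let-7e (0.25) and let-7d (0.93) had the smallest differences of the family.

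The probe 2org-7 carries the number 7 without a letter and was not counted with the family. It had 1.19 and -0.11 at day 10, against 1.15 and 0.19 at day 3.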
